A study of Mus musculus with 9 samples.

Results

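The guanylate-binding proteins (GBPs) are a family of large GTPases, and their genes (Gbp) are among the most strongly interferon-induced genes of mouse cells. The 10 members described here are Gbp2 to Gbp11, taken by gene symbol from the 23234 genes listed in every library. RNA sequencing measured all 10 in 9 libraries of mouse ILC2s (group 2 innate lymphoid cells), lymphocytes that reside in tissues and secrete type 2 cytokines. The cells were wild-type, of strain C57BL/6, isolated from fat-associated lymphoid clusters and kept in culture for 48 h. There were 3 libraries with IL-33 plus IFN-γ, 3 with IL-33 plus IL-27 and 3 with IL-33 alone, each cytokine at 10 ng/ml, so IL-33 was present in all 3 groups. IL-33, released by damaged tissue, drives ILC2 activation, and IFN-γ and IL-27 each signal through JAK kinases and STAT transcription factors.

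GBPs bind and hydrolyse guanine nucleotides and assemble into coats on vacuoles that hold intracellular parasites or bacteria and on bacteria that reach the cytosol. Some members, such as mouse Gbp2 and Gbp5, carry a C-terminal prenyl group that anchors them in membranes. Most of what is known of them comes from macrophages and fibroblasts, in which they promote lysis of the vacuole and activation of inflammasomes, and in mice they are encoded in a cluster on chromosome 3 and another on chromosome 5.

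In genome build mm9 with the GENCODE annotation, the chromosome 3 cluster spanned 141 kb on the plus strand, from 142159864 to 142300972. It held, in order, Gbp5 (142159864 to 142185308), Gbp7 (142193302 to 142213047), Gbp3 (142223016 to 142236173), Gbp1, which is not among the 10 members, and Gbp2 (142283566 to 142300972). The chromosome 5 cluster spanned 330 kb on the minus strand, from 105443172 to 105772948. It held Gbp8 (105443172 to 105482580), Gbp9 (105507413 to 105539311), Gbp4 (105544786 to 105568605), Gbp10 (105643926 to 105668552), Gbp6 (105699723 to 105722718) and Gbp11 (105755499 to 105772948). All of these genes are annotated as protein coding in GENCODE, whereas RefSeq lists Gbp11 as a transcribed pseudogene.

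IFN-γ and IL-27 both act through JAK-STAT signalling, and members on both chromosomes rose with them. Promoters are shown only for chromosome 3 members, because the promoter set used here held no match by symbol for those on chromosome 5. Whether the motifs take part in the rise was not tested. RefSeq promoter sequences (build GRCm38.p6, 250 bases before to 50 bases after the gene start, plus strand) were matched for 4 of the 10 members, Gbp5, Gbp7, Gbp3 and Gbp2. Capitals mark matches to the GAS motif TTCNNNGAA, a site bound by STAT dimers, and to the core of the interferon-stimulated response element (ISRE), GAAA, 2 bases of any kind and GAAA, which reads TTTC, 2 bases and TTTC on the other strand. The ISRE is bound by interferon regulatory factors. The windows are chr3:142496684-142496983 for Gbp5, chr3:142530086-142530385 for Gbp7, chr3:142559794-142560093 for Gbp3 and chr3:142620413-142620712 for Gbp2.
Gbp5: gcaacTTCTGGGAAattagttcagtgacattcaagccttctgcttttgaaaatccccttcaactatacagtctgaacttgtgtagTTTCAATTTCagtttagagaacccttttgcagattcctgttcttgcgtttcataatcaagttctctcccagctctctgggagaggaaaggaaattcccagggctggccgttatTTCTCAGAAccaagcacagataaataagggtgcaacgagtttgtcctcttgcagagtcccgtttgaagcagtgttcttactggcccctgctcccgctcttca
Gbp7: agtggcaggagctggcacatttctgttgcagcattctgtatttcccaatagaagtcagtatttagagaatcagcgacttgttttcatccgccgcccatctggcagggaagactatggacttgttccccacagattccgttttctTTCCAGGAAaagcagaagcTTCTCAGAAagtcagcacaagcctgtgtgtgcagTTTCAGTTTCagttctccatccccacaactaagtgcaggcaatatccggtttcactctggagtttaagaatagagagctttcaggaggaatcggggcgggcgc
Gbp3: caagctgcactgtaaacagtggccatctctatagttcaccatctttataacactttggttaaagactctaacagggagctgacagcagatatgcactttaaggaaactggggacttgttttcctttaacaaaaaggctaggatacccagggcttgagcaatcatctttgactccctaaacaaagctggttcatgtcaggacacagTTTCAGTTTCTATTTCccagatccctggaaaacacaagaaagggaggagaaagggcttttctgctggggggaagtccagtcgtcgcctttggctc
Gbp2: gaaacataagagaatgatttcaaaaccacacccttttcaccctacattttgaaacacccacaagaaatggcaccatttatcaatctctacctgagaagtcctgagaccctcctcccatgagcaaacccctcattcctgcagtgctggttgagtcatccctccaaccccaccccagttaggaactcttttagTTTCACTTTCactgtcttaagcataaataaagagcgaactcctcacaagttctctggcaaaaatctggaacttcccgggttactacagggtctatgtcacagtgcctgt

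Both strands were searched, and every ISRE match lay on the minus strand. Gbp5 held GAS matches at -245 to -237 and -52 to -44 and an ISRE core at -165 to -156, counted from the gene start. Gbp7 held GAS matches at -106 to -98 and -87 to -79 and an ISRE core at -53 to -44. Gbp3 held 2 ISRE cores that overlap each other, at -45 to -36 and -39 to -30, and Gbp2 held 1 at -59 to -50. No GAS match was found in the Gbp3 and Gbp2 windows, and a second Gbp3 start, with the window chr3:142560106-142560405, held neither motif. Among 32851 mouse promoter windows of the same length, 8.30% held a GAS match, 3.44% an ISRE core and 0.454% both. A match is a string of letters, not a measured binding site.

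The members differ in how far their transcripts can be told apart, which bears on every value below. Aligned coding sequences were 90.2% to 98.4% identical for the 15 pairs on chromosome 5 (median 91.8%), 64.2% to 78.3% for the 6 pairs on chromosome 3 (median 65.1%), and 63.6% to 76.7% for the 24 pairs across the chromosomes (median 69.7%). The closest pair was Gbp6 and Gbp10. Windows of 50 bases were taken along the GENCODE transcript with the longest coding sequence. Of these, 80.7% of those in Gbp6 and 79.8% of those in Gbp10 also occurred in another Gbp gene. The share was 34.5% for Gbp11, 19.7% for Gbp8, 12.4% for Gbp4 and 9.07% for Gbp9, and at most 4.88% for the members on chromosome 3. How reads that match several genes were divided is not given in the sources used here, so the split between Gbp6 and Gbp10 is uncertain.

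Coding stretches of 90 bases show this. The first was chosen as the stretch with the most differences from Gbp6 over Gbp10 and Gbp11 together, so it is not typical. Over all aligned coding bases Gbp6 and Gbp11 were 93.4% identical. In bases 712 to 801 of the coding sequence (GENCODE transcripts, build mm9, chromosome 5), Gbp6 and Gbp10 were identical. Gbp11 differed from them at 14 bases, where capitals mark the positions that differ.
Gbp6: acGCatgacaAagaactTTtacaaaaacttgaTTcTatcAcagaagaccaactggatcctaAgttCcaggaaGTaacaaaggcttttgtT
Gbp10: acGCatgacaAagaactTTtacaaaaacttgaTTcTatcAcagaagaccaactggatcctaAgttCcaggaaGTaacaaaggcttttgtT
Gbp11: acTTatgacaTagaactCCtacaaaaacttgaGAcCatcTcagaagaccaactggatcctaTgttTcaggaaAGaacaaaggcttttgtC
In bases 1556 to 1645, the stretch with the most differences between Gbp6 and Gbp10, the genes differed at 12 bases, again in capitals.
Gbp6: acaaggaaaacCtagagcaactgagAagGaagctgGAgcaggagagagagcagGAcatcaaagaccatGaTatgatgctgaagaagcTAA
Gbp10: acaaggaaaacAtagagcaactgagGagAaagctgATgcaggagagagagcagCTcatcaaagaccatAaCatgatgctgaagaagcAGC

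Each library's values summed to between 628625 and 672534 FPKM (fragments per kilobase of transcript, scaled to library depth, the unit inferred for the deposited values). From the steps between low values the depth was estimated at 890000 to 970000 fragments per library, and 1 fragment in 2 kb of transcript then equals 0.515 to 0.562 FPKM. All 10 ILC2 markers on a fixed list were detected. Their summed level was 5798 to 9064 FPKM with IFN-γ, 12074 to 12695 FPKM with IL-27 and 14637 to 22269 FPKM with IL-33 alone, and the cytokine genes Il5 and Il13 made up 71.9% to 91.0% of it. The other 8 markers, among them Gata3, Rora, Id2 and Il2ra, had sums that overlapped between the groups. They summed to 1631 to 2266 FPKM with IFN-γ, 2107 to 3466.5 FPKM with IL-27 and 2013 to 3279 FPKM with IL-33 alone. Il2ra by itself was lower in every library with an added cytokine. It was at 414, 413 and 314.5 FPKM with IFN-γ, 575, 576 and 413.3 FPKM with IL-27, and 877, 1018 and 889.9 FPKM with IL-33 alone. Summed B cell markers stayed at or below 1.8 FPKM and summed NK and ILC1 markers at or below 1.2 FPKM in every library, and Cd4 and the macrophage receptor gene Csf1r were listed at 0 in all of them. Macrophage and dendritic cell markers summed to 6.03 to 20.4 FPKM with IFN-γ, 1.37 to 17.6 FPKM with IL-27 and 3.96 to 11.0 FPKM with IL-33 alone. Among them Cd68 was at 18.8, 4.68 and 13.3 FPKM with IFN-γ, 5.13, 1.16 and 14.4 FPKM with IL-27, and 3.79, 1.16 and 10 FPKM with IL-33 alone. No other gene of that list exceeded 2.34 FPKM. Emr1 was at 0.664, 0.619 and 0 FPKM with IFN-γ, 0, 0 and 0.6 FPKM with IL-27, and 2.34, 2.14 and 0.3 FPKM with IL-33 alone. Fibroblast markers summed to 36.2 to 86.5 FPKM in the replicate 3 libraries of the 3 groups and to 2.92 to 17.6 FPKM in the other 6 libraries. Of 6 T cell markers, Cd3g alone carried 79.1% to 97.0% of the sum, at 75.8 to 97.6 FPKM in the replicate 3 libraries and 28.4 to 43.2 FPKM in the others, while none of the other 5 exceeded 7.15 FPKM in any library. Mast cell markers, mostly Fcer1a, summed to 5.7 to 11.5 FPKM in replicate 3 and to at most 2.51 FPKM in the others. Whether replicates came from separate cultures or mice is not stated in the labels, and the p-values below therefore describe spread between libraries that may be technical.

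Gbp transcripts made up a small part of the measured RNA with IL-33 alone and rose in both other groups. The 10 members together summed to 2149.7, 2439 and 4020.3 FPKM in the 3 libraries with IFN-γ, to 1286, 1169 and 1570.5 FPKM in those with IL-27, and to 46.1, 52.2 and 76.4 FPKM in those with IL-33 alone. These sums were 0.339% to 0.613% of all FPKM with IFN-γ, 0.185% to 0.237% with IL-27 and 0.00714% to 0.0122% with IL-33 alone. The groups did not overlap, and every library with IFN-γ lay above every library with IL-27. In bulk RNA, more cells with the transcripts and more transcript per cell cannot be told apart.

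**Figure D1:**
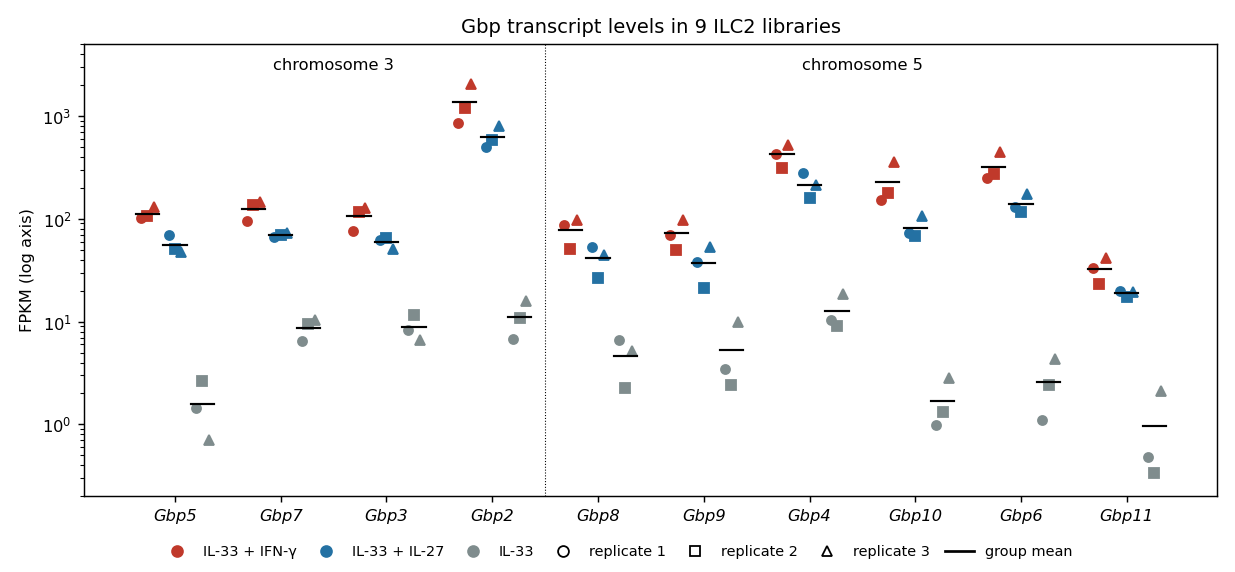
FPKM (log axis) of the 10 Gbp genes in each of 9 libraries, in chromosome order; points are libraries, coloured by group and shaped by replicate number, and black lines are group means. Every library with IFN-γ or IL-27 lies above every IL-33 library of the same gene, and Gbp2 is the highest gene in all 6 libraries with an added cytokine.

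IFN-γ was compared with IL-33 alone to see how the family responded to a type II interferon in ILC2s. All 10 members passed the filter on low values (a 9-library mean of 1 FPKM or more), but Gbp11 passed only through the groups with an added cytokine. Gbp11 is counted with the others below, but its calls against IL-33 alone give no support. All 10 rose with IFN-γ (limma, adjusted p under 0.05), where 2.19% of the 11014 tested genes were called higher and 0.717% lower. All 10 also had non-overlapping groups, higher with IFN-γ, against 11.9% of the tested genes. The median log2 fold change of the members was 4.57, beside 0.03 over all tested genes. With only replicates 1 and 2 of each group, all 10 were called as well.

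IL-27 was compared with IL-33 alone in the same fit. All 10 members rose with IL-27 as well, where 0.908% of the tested genes were called higher and 0.118% lower, and all 10 had non-overlapping groups, against 8.29% of the tested genes. The median log2 fold change of the members was 3.72, beside 0.01 over all tested genes. With only replicates 1 and 2 of each group, 9 members were called. Both comparisons use the same 3 IL-33 libraries, so their values stand side by side here and are not independent of each other.

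Gbp2, a prenylated member that is recruited to the vacuole of Toxoplasma gondii in mouse cells, was the most abundant Gbp transcript with either added cytokine. It was measured at 858, 1198 and 2056 FPKM with IFN-γ, at 499, 578 and 795 FPKM with IL-27, and at 6.78, 10.8 and 16.0 FPKM with IL-33 alone. The 3 groups did not overlap. By mean FPKM it ranked 90 among the 23234 listed genes with IFN-γ, 152 with IL-27 and 6109 with IL-33 alone. Its log2 fold change over IL-33 was 6.79 ± 0.36 (SE) with IFN-γ (limma, adjusted p = 1.98e-05) and 5.73 ± 0.36 with IL-27 (adjusted p = 0.000126). These were the largest log2 fold changes of any member at a pseudocount of 1. With a pseudocount of 0.1, Gbp6 had 7.03 and Gbp10 7.01 with IFN-γ, against 6.92 for Gbp2, and with IL-27 Gbp6 and Gbp2 both had 5.85.

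Gbp5, which promotes assembly of the NLRP3 inflammasome in mouse macrophages, started much lower. Its level was 101, 105 and 129.8 FPKM with IFN-γ, 68.8, 50.9 and 47.2 FPKM with IL-27, and 1.44, 2.64 and 0.7 FPKM with IL-33 alone. The groups did not overlap, and the IL-33 values rest on only about 2 to 10 fragments per library. The log2 fold change was 5.51 ± 0.28 with IFN-γ (adjusted p = 1.98e-05) and 4.498 ± 0.28 with IL-27 (adjusted p = 0.000126).

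Gbp7 and Gbp3, their neighbours on chromosome 3, had some of the higher levels with IL-33 alone and some of the smaller changes. Gbp7, which takes part in the defence of mouse macrophages against intracellular bacteria, was at 95.3, 136 and 145 FPKM with IFN-γ, 67.1, 68.8 and 72.7 FPKM with IL-27, and 6.49, 9.43 and 10.3 FPKM with IL-33 alone. Gbp3 was at 75.9, 116 and 128 FPKM with IFN-γ, 61.6, 64.5 and 50.6 FPKM with IL-27, and 8.35, 11.5 and 6.6 FPKM with IL-33 alone. Neither gene had overlapping groups. With IFN-γ the log2 fold change was 3.70 ± 0.22 for Gbp7 (adjusted p = 2.82e-05) and 3.45 ± 0.25 for Gbp3 (adjusted p = 0.000136). With IL-27 it was 2.88 ± 0.22 for Gbp7 (adjusted p = 0.000296) and 2.63 ± 0.25 for Gbp3 (adjusted p = 0.00113).

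On chromosome 5, Gbp6 and Gbp10 changed most, with the caution that their reads are largely shared. Gbp6 had 248, 272 and 444.5 FPKM with IFN-γ, 129, 116 and 172 FPKM with IL-27, and 1.10, 2.43 and 4.3 FPKM with IL-33 alone. Gbp10 had 152, 178 and 358 FPKM with IFN-γ, 72.7, 67.8 and 105 FPKM with IL-27, and 0.994, 1.33 and 2.8 FPKM with IL-33 alone. For both genes the 3 groups were fully separate. The log2 fold change with IFN-γ was 6.53 ± 0.35 for Gbp6 (adjusted p = 1.98e-05) and 6.36 ± 0.36 for Gbp10 (adjusted p = 2.46e-05), and with IL-27 it was 5.36 ± 0.35 (adjusted p = 0.000126) and 4.97 ± 0.36 (adjusted p = 0.000254).

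Taken as a sum, which depends little on how shared reads were split between this pair, Gbp6 and Gbp10 averaged 550.5 ± 219 FPKM with IFN-γ, 221 ± 49.9 FPKM with IL-27 and 4.32 ± 2.55 FPKM with IL-33 alone (SD, n = 3 each). The ratio of Gbp6 to Gbp10 was 1.24 to 1.63 with IFN-γ, 1.64 to 1.78 with IL-27 and 1.11 to 1.83 with IL-33 alone. These ratios depend on how the shared reads were divided, and with IL-33 alone they rest on about 4 to 17 fragments of Gbp6 and 4 to 11 of Gbp10 per library.

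Gbp4 was the second most abundant member with either added cytokine and the most abundant with IL-33 alone. Its level was 430.2, 311 and 523.5 FPKM with IFN-γ, 276, 158 and 211 FPKM with IL-27, and 10.4, 9.16 and 18.5 FPKM with IL-33 alone. The groups did not overlap. The log2 fold change was 4.98 ± 0.30 with IFN-γ (adjusted p = 3.26e-05) and 4.003 ± 0.30 with IL-27 (adjusted p = 0.000296).

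Gbp8 and Gbp9 were the members with the widest spread between libraries relative to their change. Gbp8 stood at 86.0, 50.2 and 97.5 FPKM with IFN-γ, 52.8, 26.6 and 44.3 FPKM with IL-27, and 6.55, 2.24 and 5.2 FPKM with IL-33 alone. Gbp9 stood at 69.6, 50.002 and 96.9 FPKM with IFN-γ, 37.9, 21.4 and 52.8 FPKM with IL-27, and 3.49, 2.40 and 9.9 FPKM with IL-33 alone. In both genes the IFN-γ and IL-27 ranges overlapped and the IL-33 libraries lay below both. The IL-33 values rest on about 5 to 14 fragments per library for Gbp8 and 8 to 32 for Gbp9. The log2 fold change of Gbp8 was 3.83 ± 0.38 with IFN-γ (adjusted p = 0.000707) and 2.93 ± 0.38 with IL-27 (adjusted p = 0.00613). Gbp9 had 3.68 ± 0.46 with IFN-γ (adjusted p = 0.00248) and 2.71 ± 0.46 with IL-27 (adjusted p = 0.0256), the largest p of any member in each comparison. The IL-27 call of Gbp9 did not hold when any of 4 libraries was left out, IL-33 replicate 1 (adjusted p = 0.0959), IL-33 replicate 2 (0.113), IL-27 replicate 1 or IL-27 replicate 3 (0.103 for each). It was also lost with no filter on low values (0.0532) and with only the IL-27 and IL-33 groups in the fit (0.0751), while the call of Gbp8 with IL-27 was lost without the replicate 3 libraries (adjusted p = 0.0843).

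Gbp11 was the least abundant member in all 6 libraries with an added cytokine, at 33.4, 23.2 and 41.3 FPKM with IFN-γ and 19.7, 17.2 and 19.6 FPKM with IL-27. With IL-33 alone it was at 0.487, 0.341 and 2.1 FPKM, no more than about 3 fragments in any library, and below the 2.33 to 2.54 FPKM that 3 fragments were worth in this transcript. The groups did not overlap. Gbp11 is counted among the members called above, but no p-value is given for it. It passed the filter on low values only through the groups with an added cytokine. Its log2 fold change was 4.16 ± 0.34 with IFN-γ and 3.43 ± 0.34 with IL-27. With a pseudocount of 0.1 in place of 1 it was 5.26 with IFN-γ and 4.51 with IL-27, so its size is not well bounded. The same pseudocount moved the IFN-γ value of Gbp5 to 6.22 and that of Gbp10 to 7.01, and their IL-27 values to 5.19 and 5.60. Calls did not change with it.

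**Figure D2:**
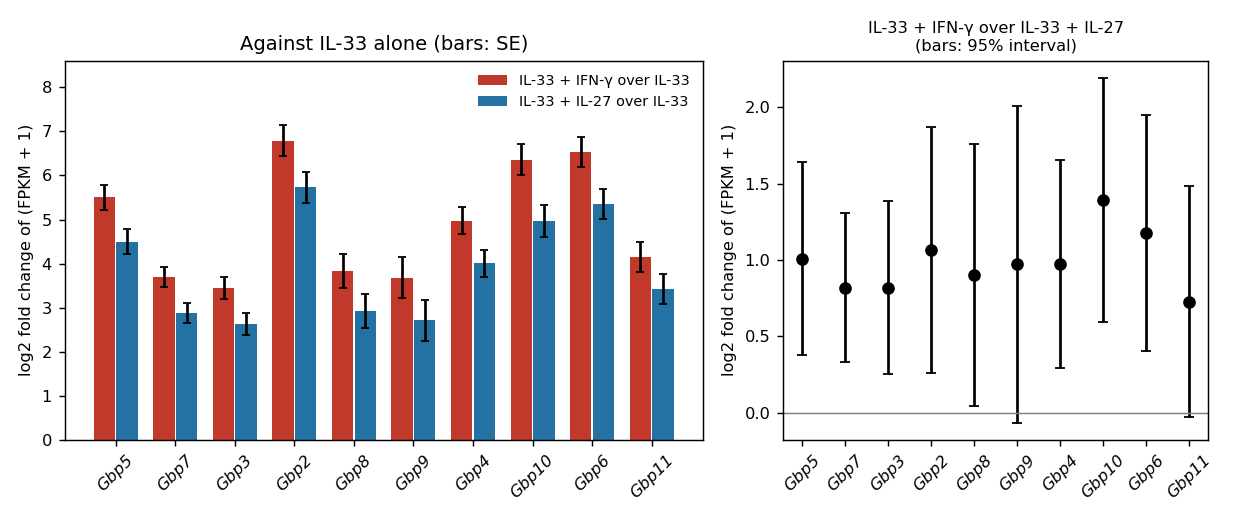
Log2 fold change of (FPKM + 1) for each Gbp gene, as bars with SE for IFN-γ and IL-27 over IL-33 (left) and as points with 95% intervals for IFN-γ over IL-27 (right). All bars lie above 2.6, and the intervals of Gbp9 and Gbp11 on the right reach below 0.

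Ratios of FPKM means, which involve no pseudocount, put the members in a similar order. With IFN-γ over IL-33 they were 134 for Gbp10, 123 for both Gbp6 and Gbp2, 70.3 for Gbp5 and 33.2 for Gbp4, and between 12.1 (Gbp3) and 16.7 (Gbp8) for Gbp3, Gbp7, Gbp8 and Gbp9. The value of Gbp9, 13.7, rested on IL-33 replicate 3, and without that library it was 24.5 with IFN-γ and 12.7 with IL-27 (7.10 with all libraries). Gbp11 is left out here because of its few fragments with IL-33 alone. With IL-27 over IL-33 they ran up to 55.8 for Gbp2, with 53.2 for Gbp6 and 48.0 for Gbp10, and down to 6.69 for Gbp3. For Gbp6 and Gbp10 these ratios stand on IL-33 means of 2.61 ± 1.61 and 1.71 ± 0.960 FPKM (SD, n = 3), whereas that of Gbp2 stands on 11.2 ± 4.63 FPKM.

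The order of the members by mean level changed between the groups. With IFN-γ it ran Gbp2 (1370.5 ± 617 FPKM, SD, n = 3), Gbp4 (422 ± 106), Gbp6 (321 ± 107), Gbp10 (229 ± 112), Gbp7 (125 ± 26.5), Gbp5 (112 ± 15.4), Gbp3 (107 ± 27.3), Gbp8 (77.9 ± 24.7), Gbp9 (72.2 ± 23.6) and Gbp11 (32.6 ± 9.06). Neighbours in this order had overlapping libraries except Gbp2 over Gbp4, Gbp10 over Gbp7 and Gbp9 over Gbp11. With IL-27 the order was Gbp2 (624 ± 153), Gbp4 (215 ± 59.4), Gbp6 (139 ± 29.6), Gbp10 (81.9 ± 20.4), Gbp7 (69.5 ± 2.89), Gbp3 (58.9 ± 7.33), Gbp5 (55.7 ± 11.6), Gbp8 (41.3 ± 13.4), Gbp9 (37.4 ± 15.7) and Gbp11 (18.8 ± 1.42). There the neighbours that did not overlap were Gbp2 over Gbp4, Gbp6 over Gbp10, Gbp7 over Gbp3 and Gbp9 over Gbp11. With IL-33 alone the means ran from 12.7 ± 5.07 (Gbp4) through 11.2 ± 4.63 (Gbp2), 8.81 ± 2.47 (Gbp3), 8.74 ± 2.00 (Gbp7), 5.26 ± 4.05 (Gbp9), 4.66 ± 2.21 (Gbp8), 2.61 ± 1.61 (Gbp6), 1.71 ± 0.960 (Gbp10) and 1.60 ± 0.981 (Gbp5) to 0.976 ± 0.976 FPKM (Gbp11), and every pair of neighbours overlapped.

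Gbp2, Gbp4 and Gbp6 were the 3 highest members in all 6 libraries with an added cytokine. The make-up of the family differed accordingly. Gbp2 made up 39.9% to 51.1% of the Gbp sum with IFN-γ, 38.8% to 50.6% with IL-27 and 14.7% to 20.9% with IL-33 alone. Gbp3 made up 3.19% to 4.75% with IFN-γ, 3.22% to 5.52% with IL-27 and 8.64% to 22.0% with IL-33 alone. The share of Gbp7 was 3.62% to 5.56% with IFN-γ, 4.63% to 5.89% with IL-27 and 13.5% to 18.1% with IL-33 alone. For these 3 genes, as for Gbp8 and Gbp9, the shares in both groups with an added cytokine did not overlap those with IL-33 alone, and the IFN-γ and IL-27 shares overlapped each other. Gbp6 made up 11.1% to 11.5% with IFN-γ, 9.89% to 11.0% with IL-27 and 2.39% to 5.63% with IL-33 alone. Gbp10 made up 7.06% to 8.89% with IFN-γ, 5.66% to 6.70% with IL-27 and 2.16% to 3.66% with IL-33 alone, so for this pair all 3 groups were separate. The shares of Gbp4, Gbp5 and Gbp11 overlapped between all groups.

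**Figure D3:**
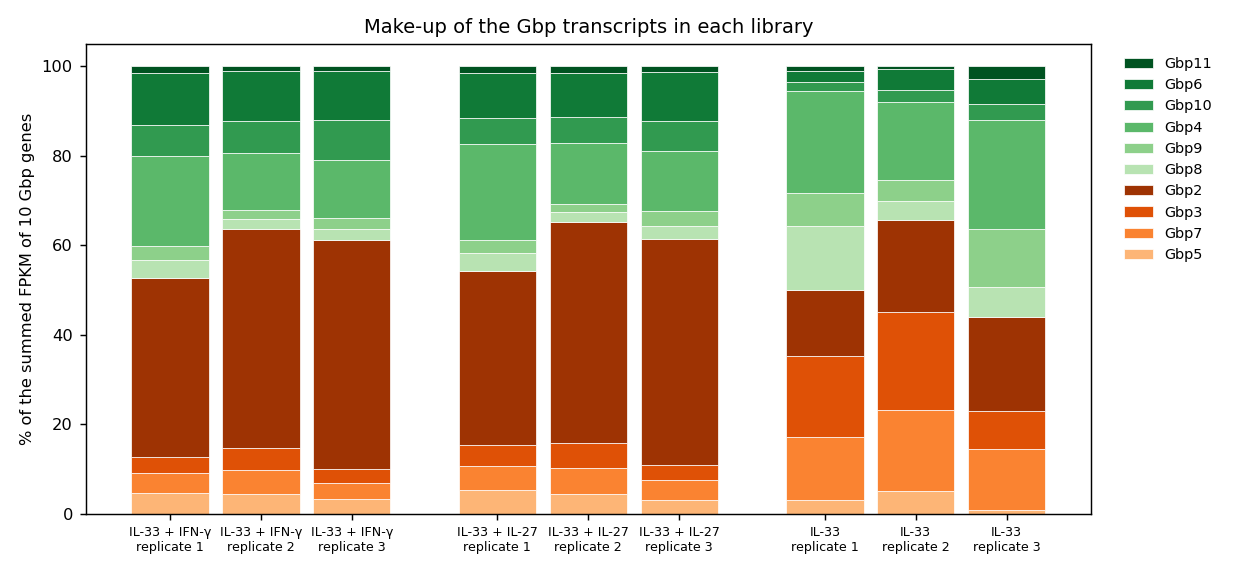
Share of each gene in the summed FPKM of the 10 Gbp genes, as stacked bars that reach 100% for each of the 9 libraries, with chromosome 3 members in orange and chromosome 5 members in green. The Gbp2 block is 38.8% to 51.1% in the 6 libraries with IFN-γ or IL-27 and 14.7% to 20.9% in the 3 with IL-33 alone.

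The balance between the clusters varied between the libraries of each group. Chromosome 3 members made up 52.6%, 63.7% and 61.2% of the Gbp sum in replicates 1, 2 and 3 with IFN-γ, 54.2%, 65.2% and 61.5% with IL-27, and 50.004%, 65.7% and 44.0% with IL-33 alone. The replicate 2 library was the highest in each group, and the 3 groups overlapped. The lowest was replicate 1 with IFN-γ and with IL-27, but replicate 3 with IL-33 alone.

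IFN-γ and IL-27 were compared with each other to see whether the family responded differently to them. The level was higher with IFN-γ for every member in each of the 3 same-number pairs of libraries, a pattern that 18.0% of the tested genes had. Across the 10 members the ratio of means was 1.73 (Gbp11) to 2.80 (Gbp10), and 8 of 10 had non-overlapping groups, the exceptions being Gbp8 and Gbp9, against 5.50% of the tested genes. No member was called different (limma, adjusted p = 0.810 to 1), and neither was any other of the 11014 tested genes (0%). At an unadjusted p under 0.05 there were 8 members, all but Gbp9 and Gbp11, and 483 genes in all (4.39%). The median log2 fold change of the members was 0.97, beside 0.01 over all tested genes.

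The main fit did not use the replicate number. Equal replicate numbers were treated as pairs in a further fit, though the labels do not say whether they share a preparation. With the replicate number as a block 2 members were called, against 0.0545% of the tested genes called higher and 0.127% called lower. They were Gbp10, at 1.39 on the log2 scale (adjusted p = 0.0313 with the block, 0.810 without), and Gbp2, with 1.07 (adjusted p = 0.0361 with the block, 1 without). With the block but only replicates 1 and 2, a setting chosen after seeing the data, neither was called (1.21, adjusted p = 0.208 for Gbp10, and 0.91, adjusted p = 0.235 for Gbp2). Without the block the 95% interval of the log2 fold change was 0.60 to 2.19 for Gbp10 and 0.26 to 1.87 for Gbp2. Gbp6 and Gbp5 had intervals of 0.40 to 1.95 and 0.38 to 1.64. The lowest bounds were those of Gbp9 (-0.06 to 2.01) and Gbp11 (-0.03 to 1.48), and the upper bounds of these 2 genes correspond to differences of 4.02-fold and 2.80-fold. With the block their intervals were 0.53 to 1.42 for Gbp9 and 0.17 to 1.29 for Gbp11, and those of the other members also lay above 0.

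Same-number ratios of IFN-γ over IL-27 differed between replicates. Over the 10 members the median ratio was 1.66 in replicate 1 (1.23 to 2.09), 2.02 in replicate 2 (1.35 to 2.62) and 2.51 in replicate 3 (1.84 to 3.40). The same medians over genes of at least 5 FPKM were 0.980, 1.01 and 1.01. Replicate 3 gave the highest ratio for 9 of 10 members, the exception being Gbp9, and replicate 1 the lowest for 8. Gbp10 had 2.09, 2.62 and 3.40 in the 3 pairs and Gbp2 had 1.72, 2.07 and 2.59. The replicate 3 libraries were also those with the higher fibroblast and mast cell marker sums and Cd3g levels, whose part in these ratios was not tested.

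Within groups the members did not all move together. The IFN-γ replicate 3 library was above the group mean, on the log2(FPKM + 1) scale, for 10 of 10 members, by 0.22 to 0.75. IL-27 replicate 2 was below its group mean for 9 of 10 members and IL-33 replicate 1 for 9 of 10. Correlations of these deviations over the 9 libraries are given as a description, since the points share libraries and depth. For the 21 pairs of genes on the same chromosome they ranged from -0.177 to 0.926 (median 0.72). The 24 pairs on different chromosomes ranged from -0.538 to 0.952 (median -0.01). The 2 clusters differed: the 6 pairs on chromosome 3 had 0.886, 0.765, 0.422, 0.175, 0.0125 and -0.177. The 15 pairs on chromosome 5, whose sequences are more alike, ran from 0.104 (Gbp6 with Gbp8) to 0.926. The part of shared reads in these values was not tested. The highest of all pairs was Gbp2 with Gbp10 (0.952), followed by Gbp2 with Gbp6 (0.940) and Gbp6 with Gbp10 (0.926). Gbp2 and this pair lie on different chromosomes, and 0% of the 50-base windows in Gbp2 occurred in Gbp6 or in Gbp10. The lowest were Gbp3 with Gbp9 (-0.538) and Gbp5 with Gbp11 (-0.523).

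**Figure D4:**
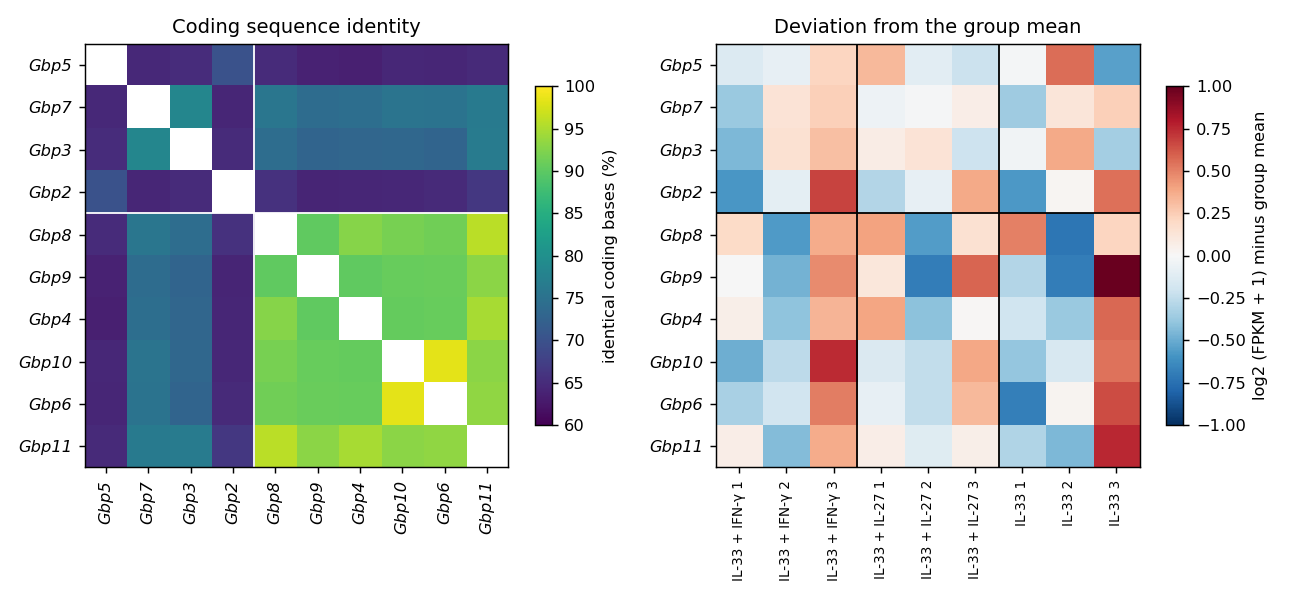
Percent of identical coding bases for each pair of Gbp genes (left), and the deviation of each library from its group mean in log2(FPKM + 1) (right), with lines between the chromosome 3 and 5 members and between groups and a blank diagonal. The chromosome 5 block on the left is at 90.2% or more, and IFN-γ replicate 3 on the right is above its group mean for all 10 genes.

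No tested gene beside the clusters was called in any comparison in the fit without the block, which is near the shares of all tested genes called. Those shares were 2.19% higher and 0.717% lower with IFN-γ, 0.908% higher and 0.118% lower with IL-27, and 0% between IFN-γ and IL-27. Of the 3 nearest listed genes on each side of the chromosome 3 cluster, Pdlim5, 101 kb before it, had a log2 fold change over IL-33 alone of 0.50 with IFN-γ (adjusted p = 0.371) and 0.07 with IL-27 (adjusted p = 0.967). Ccbl2, 63.0 kb after the cluster, had 0.03 with IFN-γ and -0.46 with IL-27. Gtf2b had -0.11 with IFN-γ and 0.18 with IL-27, and Pkn2 had 0.08 with IFN-γ and 0.30 with IL-27. Unc5c and Bmpr1b were listed at or near 0 and were not tested. Beside the chromosome 5 cluster, Abcg3, 31.4 kb away, had 1.10 with IFN-γ (adjusted p = 0.450) and 1.19 with IL-27 (adjusted p = 0.612). Abcg3 was at 2.86 to 11.3 FPKM with IFN-γ, 2.55 to 12.9 FPKM with IL-27 and 1.08 to 5.3 FPKM with IL-33 alone, so the groups overlapped. Lrrc8d had -0.96 with IFN-γ (adjusted p = 0.0605) and -0.50 with IL-27 (adjusted p = 0.542), and the values of D930016D06Rik, Zfp951, Lrrc8b and Lrrc8c lay between -0.28 and 0.15.

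**Figure D5:**
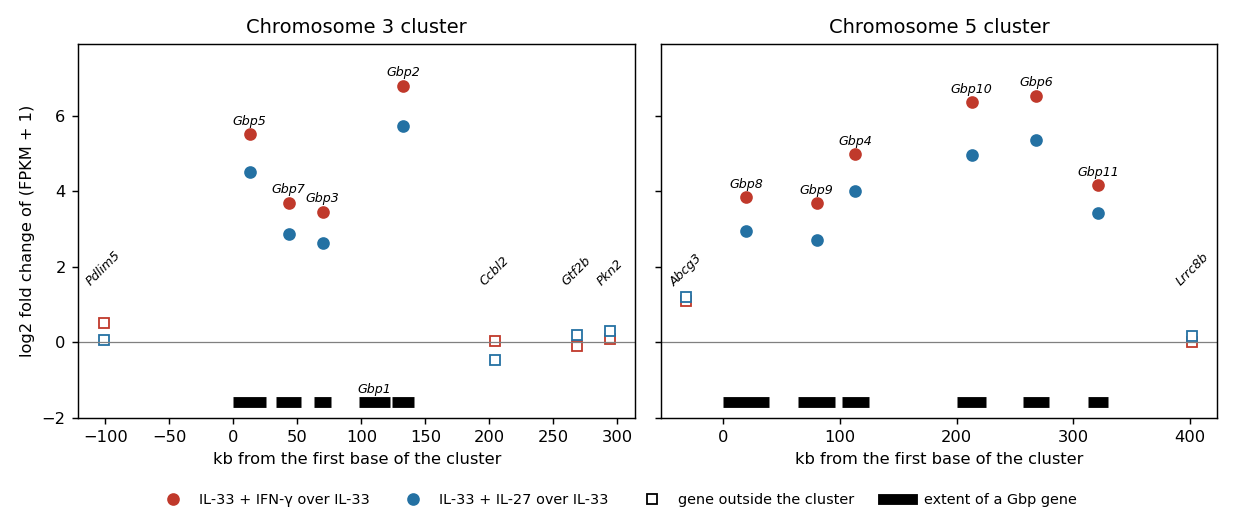
Log2 fold change of (FPKM + 1) over IL-33 against the position of the gene's midpoint, in kb from the first base of each cluster, for Gbp members (filled circles) and for the closest listed genes outside the clusters (open squares); black bars show the extent of each Gbp gene. All Gbp points lie above 2.6 and the neighbours drawn lie between -0.46 (Ccbl2) and 1.19 (Abcg3). Neighbours farther off, such as Lrrc8d, are not drawn, and no fold is drawn for Gbp1, listed at 0 with IL-33 alone.

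Gbp1, which lies inside the chromosome 3 cluster between Gbp3 and Gbp2, was measured at 5.98, 11.7 and 18.7 FPKM with IFN-γ and 3.35, 3.92 and 8.8 FPKM with IL-27, and was listed at 0 in all 3 libraries with IL-33 alone. It passed the filter on low values only through the groups with an added cytokine, so no test is given, and no fold is given against a group at 0.

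The genes whose levels followed the members most closely were found by Pearson's r between log2(FPKM + 1) and the mean of the 10 members over the 9 libraries, among 11004 tested genes that are not members. The 9 points form 3 separate groups, so r mainly ranks genes by how alike their group differences are, and it is given without a test. The first was Psmb9, an inducible catalytic subunit of the immunoproteasome, with r = 0.998. It was at 282 to 366 FPKM with IFN-γ, 190.2 to 243 FPKM with IL-27 and 35.5 to 46.6 FPKM with IL-33 alone. Others among the first 8 were Irgm2, an immunity-related GTPase (0.991), Psme1, a proteasome activator subunit (0.991), Gm8989 (0.991), Igtp (0.990), Hip1r (0.989) and Iigp1 (0.987). Gbp1 had r = 0.965 and rank 43.

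Of 20 genes of IFN-γ and IL-27 signalling, 18 were tested. With IFN-γ 8 rose, against 2.19% of all tested genes, and none fell, and with IL-27 4 rose, against 0.908% of all tested genes, and none fell. The IFN-γ count was 5 without IL-33 replicate 2 and 5 with only replicates 1 and 2. With the replicate block 10 rose and 1 fell with IFN-γ and 9 rose with IL-27, in a fit that called 3.37% of the tested genes higher and 1.78% lower with IL-27, and 6.51% higher and 4.66% lower with IFN-γ. The median log2 fold change was 1.08 with IFN-γ and 1.00 with IL-27. The interferon regulatory factor genes Irf1 and Irf8 rose in both comparisons, Irf1 by 3.49 on the log2 scale with IFN-γ (adjusted p = 0.00182) and 3.07 with IL-27 (adjusted p = 0.00648), and Irf8 by 3.14 with IFN-γ (adjusted p = 0.000320) and 2.45 with IL-27 (adjusted p = 0.00275). Irf9, named after its values were seen, also rose with IL-27 (1.51, adjusted p = 0.0134), but that call was lost without IL-33 replicate 1, IL-33 replicate 2, IL-27 replicate 1 or IL-27 replicate 2 (adjusted p up to 0.0672 over all alternatives).

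Socs1, a feedback inhibitor of Janus kinases, rose by 2.71 on the log2 scale with IFN-γ (adjusted p = 0.000707) and had 1.35 with IL-27 (adjusted p = 0.0520, and 0.0278 with the replicate block). Socs1 was at 30.9, 50.1 and 41.1 FPKM with IFN-γ, 16.3, 14.7 and 14.2 FPKM with IL-27, and 8.01, 4.59 and 3.9 FPKM with IL-33 alone, with no overlap between groups. The receptor genes Ifngr1, Ifngr2, Il27ra and Il6st were not called in either comparison. With the replicate block Il27ra was called at 0.87 with IFN-γ (adjusted p = 0.0184) and 0.78 with IL-27 (adjusted p = 0.0426). Socs3, named after its values were seen, had -1.83 with IFN-γ (adjusted p = 0.249, and 0.00136 with the block), and -1.96 with IFN-γ over IL-27 (adjusted p = 1, and 0.0247 with the block).

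The immunity-related GTPases (IRGs) are smaller interferon-induced GTPases that act on the same vacuoles as the GBPs. Of 11 tested, 8 rose with IFN-γ (against 2.19% of all tested genes) and 8 with IL-27 (against 0.908%), and none fell. With the replicate block 11 rose with IFN-γ and 10 with IL-27, where 6.51% and 3.37% of all tested genes were called higher. Their median log2 fold change was 3.93 with IFN-γ and 3.45 with IL-27. On the log2 scale, Igtp rose by 4.17 ± 0.34 with IFN-γ (adjusted p = 0.000193) and 3.60 ± 0.34 with IL-27 (adjusted p = 0.000941). Tgtp2 rose by 5.48 ± 0.44 with IFN-γ (adjusted p = 0.000193) and 4.95 ± 0.44 with IL-27 (adjusted p = 0.000756). Ifi47 rose by 3.93 ± 0.35 with IFN-γ (adjusted p = 0.000320) and 3.45 ± 0.35 with IL-27 (adjusted p = 0.00141). Iigp1 was at 54.9, 113 and 274 FPKM with IFN-γ and 27.9, 32.0 and 72.3 FPKM with IL-27. In the libraries with IL-33 alone it was listed at 0, 0 and 0.7 FPKM, so it passed the filter on low values only through the other groups. Iigp1 is included in the counts and medians of this list, but its calls give no support.

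Genes that act with or on GBPs formed 2 further lists, and the counts of 0 on them are near the shares of all tested genes called (2.19% higher and 0.717% lower with IFN-γ, 0.908% higher and 0.118% lower with IL-27). The ubiquitin-like conjugation genes of autophagy, which are needed in mouse cells to load GBPs and IRGs onto vacuoles, had 0 of 14 tested members called in both comparisons, with median log2 fold changes of -0.03 with IFN-γ and 0.09 with IL-27. With the replicate block 1 of the 14 was called with IFN-γ and 1 with IL-27, where 6.51% and 3.37% of all tested genes were called higher. The first was Atg10 (1.33), which averaged 0.937 ± 0.443 FPKM (SD) with IL-33 alone. Atg10 passed the filter on low values only through the other groups, so no p-value is given. The second was Gabarap (0.56, adjusted p = 0.580 without the block and 0.0365 with it), named after its values were seen. Prenylation enzymes, which attach the membrane anchor or process the protein after it is attached, had 0 of 6 called. The largest change was that of Zmpste24 with IFN-γ (-0.64, adjusted p = 0.149, and 0.0265 with the block).

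Of 12 inflammasome genes, 7 were tested, 2 rose with IFN-γ and 1 rose with IL-27, where 2.19% and 0.908% of all tested genes were called higher. With the replicate block 4 rose and 1 fell with IFN-γ and 2 rose with IL-27, where 6.51% and 3.37% were called higher. Casp1, the inflammasome caspase, was at 93.4, 115 and 121.5 FPKM with IFN-γ, 102, 92.5 and 101.5 FPKM with IL-27, and 41.9, 42.7 and 55.9 FPKM with IL-33 alone. It rose by 1.22 ± 0.18 on the log2 scale with IFN-γ (adjusted p = 0.00513) and by 1.07 ± 0.18 with IL-27 (adjusted p = 0.0207). The IL-27 call of Casp1 was lost without IL-33 replicate 1, IL-33 replicate 2, IFN-γ replicate 2 or any 1 IL-27 library, with only the 2 groups compared and with only replicates 1 and 2 (adjusted p up to 0.108), which left 0 calls on the list. Pycard, the adaptor of the complex, rose by 1.22 ± 0.20 with IFN-γ (adjusted p = 0.0101, and 0.0554 without IFN-γ replicate 2) and had 0.58 ± 0.20 with IL-27 (adjusted p = 0.343). Gsdmd, the pore-forming substrate of inflammatory caspases, had 1.35 ± 0.32 with IFN-γ (adjusted p = 0.0551, and 0.00252 with the block) and 1.445 ± 0.32 with IL-27 (adjusted p = 0.0797, and 0.00313 with the block). Casp4, named after its values were seen, had 0.55 ± 0.30 with IFN-γ (adjusted p = 0.446, and 0.0326 with the block). Nlrp3, a sensor, had -1.59 ± 0.41 with IFN-γ (adjusted p = 0.0746, and 0.0475 with the block). Between IFN-γ and IL-27, no gene of the 5 lists was called in the fit without the block.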

How the data were processed

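RNA was sequenced from 9 ILC2 libraries, 3 per group. Per the submitters' processing notes, Bowtie2 2.1.0, TopHat2 2.0.8, Cufflinks 2.1.1 and genome build mm9 were used, and their roles and the gene annotation are not given in the sources used here. The deposited values were taken as FPKM per gene, because Cufflinks is named and the values are decimals that are never negative. The replicate 3 tables hold 1 decimal and grouping commas, which were removed. No read counts were analysed here, and depth was estimated from the steps between low values, with transcript lengths of another annotation, so fragment numbers are approximate and cover counting error only.

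Values were analysed as log2(FPKM + 1), which understates changes of genes near 0, for the 11014 genes whose 9-library mean reached 1 FPKM. A single limma 3.58.1 model in R 4.3.3 (trend, two-sided) covered the 3 groups, with Benjamini-Hochberg adjustment over all tested genes in each comparison and a threshold of 0.05. The procedure was tested on simulated data. Figures were drawn with matplotlib 3.10.9, and tables read with pandas 2.3.3 and numpy 2.4.6 under Python 3.11.15. Named genes were all members, the 8 genes most like their mean, the neighbours of each cluster, Gbp1, and up to 4 genes of each pathway list with the smallest adjusted p with IFN-γ. Members and lists were chosen with earlier results of these data known, so they give no independent support. A named gene that these rules picked is not reported here, though the counts and medians of its list include it.

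The titles number the replicates 1 to 3 in each group. Deviations from group means correlated at 0.128 to 0.367 for the 9 pairs with the same number. For the 18 others they correlated at -0.298 to -0.0251. Deviations are centred within each group, so these ranges are not independent of each other. On this basis equal numbers were treated as pairs in the same-number ratios and in the blocked fit only. The main fit, which gave every p-value not marked as blocked, had no replicate term. The labels do not say whether equal numbers share a preparation. The blocked fit adds the replicate number as a factor. Alternatives were a pseudocount of 0.1, no filter and a mean of at least 5 FPKM, median-of-ratios scaling, only the 2 groups compared, the block, and leaving out libraries.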

Additional observations from a re-analysis of the deposited data

How the results depend on the processing

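All 10 members were called higher with IFN-γ under each of the 17 alternatives, though Gbp11 passed the main filter only through the groups with an added cytokine. With IL-27 the count was 9 or 10 over the alternatives, Gbp9 or Gbp8 being the member lost, and over libraries left out in turn it was 9 to 10. No log2 fold change of a member changed sign. The replicate block called 2 members between IFN-γ and IL-27 in place of 0, and changed no other call of a member. Genes called with IFN-γ over IL-33 numbered 320, against 1230 with the replicate block, 176 with only replicates 1 and 2, and 161 to 303 with a library left out. Genes called with IL-27 over IL-33 numbered 113, against 567 with the block, 71 with only the 2 groups compared, 68 with only replicates 1 and 2, 188 with these and the block (an alternative chosen after seeing the data), and 50 to 128 with a library left out. Between IFN-γ and IL-27 the count was 0, against 20 with the block, 2 with no filter, 2 with only replicates 1 and 2, 3 with these and the block, and 0 to 2 with a library left out. The cause of these differences was not tested. On the log2(FPKM + 1) scale, leaving out a library moved no member's fold by more than 1.41 times (Gbp9). The ratio of FPKM means of Gbp9 moved by 1.79 times without IL-33 replicate 3, and that of Gbp11 by 2.36 times, while no other member's moved by over 1.5 times. Depth limits the IL-33 levels of Gbp5, Gbp6, Gbp8, Gbp10 and Gbp11, which rest on few fragments.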
